A study of Mus musculus with 12 samples.

Results

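The genes described here are 9 genes of the nitric oxide and endothelin systems that set vascular tone: the nitric oxide synthases Nos1, Nos2, and Nos3, the endothelins Edn1 and Edn3, the endothelin-converting enzyme Ece1, the endothelin receptors Ednra and Ednrb, and the cGMP phosphodiesterase Pde5a. They were chosen by name, with earlier results of these data known, and were 9 of the 54119 genes for which fragments were summed. All 9 passed the filter on low counts, which 19150 genes passed. RNA-seq was performed on cerebral vessels isolated from the forebrain of wild-type C57BL/6 mice aged 2 to 3 months. The mice received PBS or an intraperitoneal injection of lipopolysaccharide (LPS, a bacterial cell wall component that starts systemic inflammation) at 10 mg/kg, and vessels were taken 15 min, 30 min, or 4 h after LPS. There were 12 libraries, 3 in each of the 4 groups, named PBS and LPS 15 min, 30 min, or 4 h, and each library pooled 1 male and 1 female mouse. The comparisons address how soon and in which direction transcripts that control vessel diameter change in the cerebral vessels during acute systemic inflammation. The p-values measure the spread between such pools, and when the mice given PBS were killed is not given in the sources used here.

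Nitric oxide is made from L-arginine by the nitric oxide synthases. In vessels Nos3 is the endothelial form, Nos1 is the form first described in neurons, and Nos2 is the form induced by inflammatory stimuli. Nitric oxide activates soluble guanylate cyclase in smooth muscle, cGMP then relaxes the muscle through its kinase, and Pde5a degrades that cGMP. Endothelins are peptides cut from larger precursors by Ece1. Endothelin-1 from endothelium constricts vessels through Ednra on smooth muscle, whereas Ednrb on endothelium can release nitric oxide and clears the peptide, and Ednrb is also found on astrocytes.

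RefSeq promoter windows for the GRCm38.p6 assembly were matched by symbol for 7 of the 9 genes, in 10 windows; none was matched for Nos2 and Nos3. Each window holds 250 bases before the transcription start. The windows of the ligand, converting enzyme, and receptor genes whose transcripts moved most are shown, each read 5′ to 3′ on the strand of its gene and ending at the base before the start. Capitals mark matches, on either strand, to the kappaB pattern (3 G, any 5 bases, then 2 C) or to the CRE core TGACG, and overlapping matches form 1 run of capitals. The windows lie at chr13:42301226-42301475 on the plus strand for Edn1, at chr2:174760369-174760618 on the plus strand for Edn3, at chr4:137861987-137862236 on the plus strand for Ece1, the window next to the start of its most abundant transcript, and at chr14:103843702-103843951 on the minus strand for Ednrb.
Edn1: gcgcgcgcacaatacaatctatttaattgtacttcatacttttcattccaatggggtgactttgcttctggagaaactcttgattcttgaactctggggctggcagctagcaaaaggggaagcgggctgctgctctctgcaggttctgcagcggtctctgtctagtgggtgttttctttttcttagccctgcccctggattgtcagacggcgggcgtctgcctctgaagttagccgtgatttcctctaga
Edn3: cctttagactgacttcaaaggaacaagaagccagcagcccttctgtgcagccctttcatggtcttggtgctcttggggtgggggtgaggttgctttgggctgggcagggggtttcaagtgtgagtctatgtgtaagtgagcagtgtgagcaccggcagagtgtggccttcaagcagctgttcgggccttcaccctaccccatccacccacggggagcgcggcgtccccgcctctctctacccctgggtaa
Ece1: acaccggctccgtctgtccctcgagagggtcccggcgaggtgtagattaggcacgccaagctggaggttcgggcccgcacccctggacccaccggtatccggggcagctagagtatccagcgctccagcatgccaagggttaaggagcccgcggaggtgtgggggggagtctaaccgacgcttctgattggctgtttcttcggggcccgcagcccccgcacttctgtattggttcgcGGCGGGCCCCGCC
Ednrb: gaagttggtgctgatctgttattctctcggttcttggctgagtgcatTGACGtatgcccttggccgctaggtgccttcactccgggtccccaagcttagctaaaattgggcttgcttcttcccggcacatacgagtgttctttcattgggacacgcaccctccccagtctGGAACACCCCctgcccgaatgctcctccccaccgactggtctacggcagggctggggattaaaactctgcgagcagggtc
The windows of Edn1 and Edn3 held none of the 5 patterns searched, which also included the AP-1 heptamer TGANTCA, the GATA pattern GATAA, and the TATA box TATAAA. The Ece1 window held 2 overlapping kappaB matches within the last 13 bases before the start. The Ednrb window held 1 kappaB match that begins 80 bases before the start and 1 CRE core that begins 203 bases before it. The transcript Ednrb-201, 47.8% of the TPM of Ednrb in PBS, starts at base 103844402 of chromosome 14, upstream of this window. Of 32851 windows in the RefSeq table, 45.8% held the kappaB pattern in the same 250 bases, 17.8% the CRE core, 6.75% the AP-1 heptamer, 22.6% the GATA pattern, and 12.4% the TATA box. A match of this loose kappaB pattern is thus frequent in any promoter, and the letters alone do not set Ece1 and Ednrb apart from other genes.

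The libraries held 18.3 to 25.9 M fragments assigned by Salmon. Markers of endothelium summed to 9426 to 9731 CPM (fragments scaled to a fixed TMM-adjusted library size) in PBS and those of smooth muscle and pericytes to 3338 to 3375 and 3650 to 3725, whereas neuronal markers summed to 333 to 347 CPM. Vessel cells therefore led in the PBS libraries, and neuronal, astrocyte, and perivascular RNA was also present. Within a gene, levels are given as CPM scaled by the trimmed mean of M values (TMM), which sets the median gene to nearly the same level in all groups. The TMM factors lay between 1.16 and 1.17 for PBS, between 1.147 and 1.149 for LPS 15 min, near 1.04 for LPS 30 min, and between 0.715 and 0.718 for LPS 4 h. With library size alone as the scale, the median of all genes shifted by -0.71 on the log2 scale at 4 h against PBS and by -0.17 at 30 min. At 4 h, TMM gave 3636 genes higher and 2637 lower, and library size alone gave 1907 higher and 8555 lower. Each 4 h value below is therefore relative to the median gene. In bulk vessels, fewer cells of a type and less RNA per cell cannot be told apart.

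**Figure D1:**
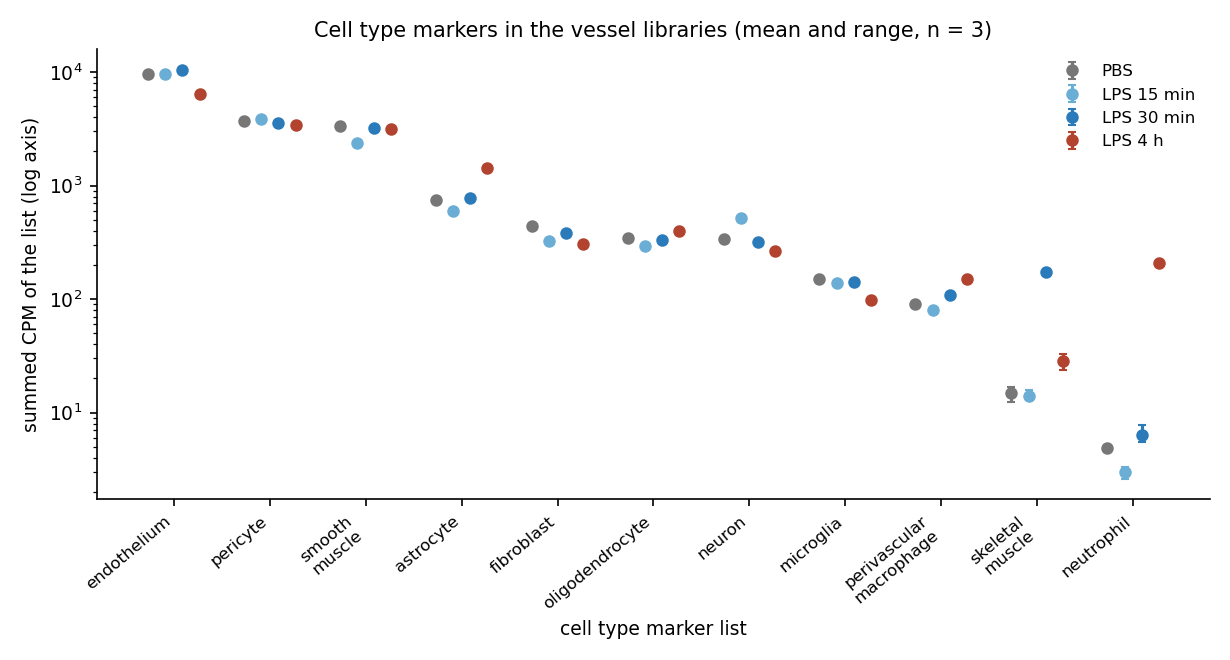
Summed CPM (log axis) of each cell type marker list in the 4 groups. Points are means of 3 libraries and bars span the lowest and highest library. Endothelial and mural lists lead in every group, the astrocyte list rises from 744 in PBS to 1429 at 4 h, and the neutrophil list rises from 4.87 to 209.

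Levels were compared between genes as TPM, a scale that corrects for transcript length. In PBS the endothelial synthase Nos3 led at 223 ± 2.59 TPM (SD, n = 3), at the 97.4th percentile of the genes tested, followed by Ece1 at 176 ± 1.81, Edn1 at 92.9 ± 1.49, and Edn3 at 79.0 ± 1.57. The remaining genes sat lower: Pde5a at 16.0 ± 0.488 TPM, Nos1 at 14.5 ± 0.768, Ednra at 13.3 ± 0.523, Ednrb at 9.05 ± 0.187, and Nos2 at 8.60 ± 0.342. The libraries of Nos1 and Ednra overlapped, as did those of Ednrb and Nos2, whereas all other neighbours in the order were separate. The ligands and their converting enzyme were thus far above the receptors in PBS.

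At LPS 4 h the order was Ece1 (186 ± 1.72 TPM), Edn1 (72.3 ± 1.09), Nos3 (54.0 ± 2.75), Nos2 (12.4 ± 0.451), Ednrb (10.7 ± 0.558), Ednra (8.94 ± 0.159), Pde5a (7.18 ± 0.59), Edn3 (6.81 ± 0.87), and Nos1 (5.43 ± 0.291). Only the libraries of Pde5a and Edn3 overlapped between neighbours at that time. Nos3 had gone from the first to the third place, Edn3 from the fourth to the eighth, and Nos2 from the last to the fourth. The TPM of a library have a fixed sum, so these levels follow the whole composition of the library and can move opposite to TMM-scaled CPM, as Edn1 did at 4 h.

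**Figure D2:**
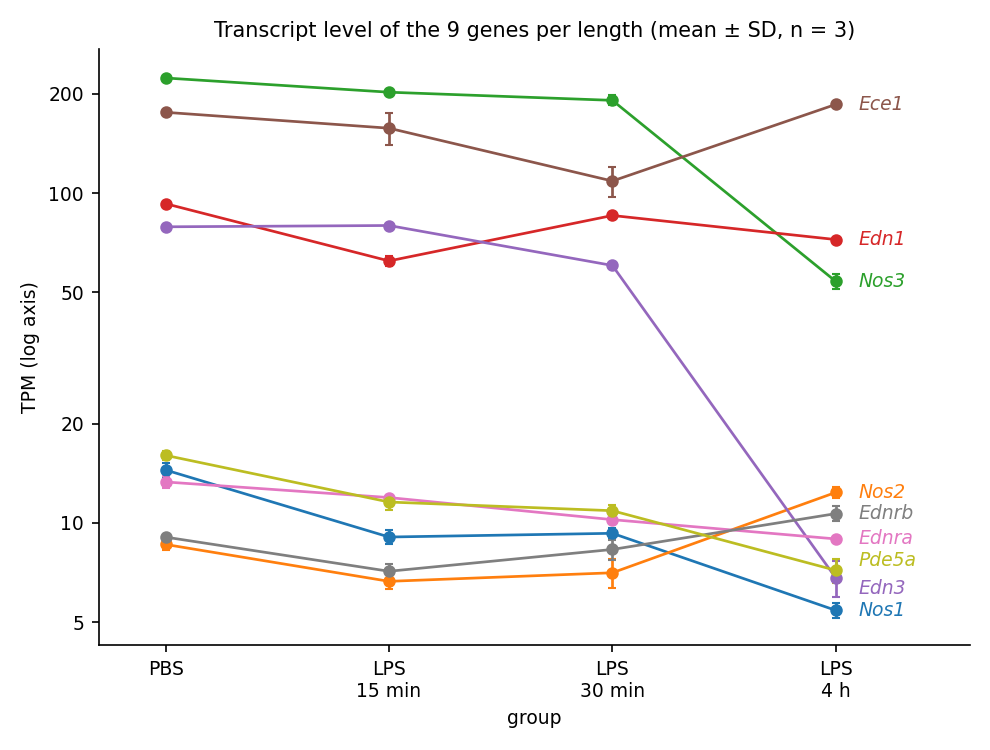
TPM of the 9 genes (log axis) in each group, as mean ± SD of 3 libraries. Nos3 and Edn3 lose level between LPS 30 min and LPS 4 h, from 191 to 54.0 TPM and from 60.3 to 6.81 TPM, while Nos2 goes from 7.06 to 12.4 TPM.

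A gene was called changed when edgeR's quasi-likelihood test for a change beyond 1.5-fold gave an adjusted p below 0.05 over all 19150 genes. None of the 9 genes was called at 15 min or at 30 min against PBS, when 4.18% and 4.58% of all tested genes were, and DESeq2 with the same fold limit also called none. At an unadjusted p below 0.05, 1 of the 9 passed at 15 min and 0 at 30 min. At 4 h, 5 of the 9 were called, beside 32.8% of all tested genes. Nos2, Ednrb, and Ece1 rose, beside 19.0% of all genes that did, and Nos3 and Edn3 fell, beside 13.8%. With library size alone 5 were also called, but 1 was higher, Nos2, and 4 were lower, Nos1, Nos3, Edn3, and Pde5a, beside 54.6% of all genes called. The median absolute log2 fold change at 4 h was 0.98 over the 9 genes and 0.59 over all genes. Without the fold limit, 6 of the 9 passed at 15 min, all lower, beside 38.6% of all genes called and 18.2% called lower. The same test passed 5 of the 9 at 30 min, 2 higher and 3 lower, beside 36.9%, of which 19.7% were higher and 17.2% lower, and all 9 at 4 h beside 68.5%. The early differences were therefore small but often larger than the spread between libraries. The groups did not overlap for 7 of the 9 genes at 15 min, 7 at 30 min, and 9 at 4 h, beside 49.3%, 46.7%, and 70.9% of all genes.

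**Figure D3:**
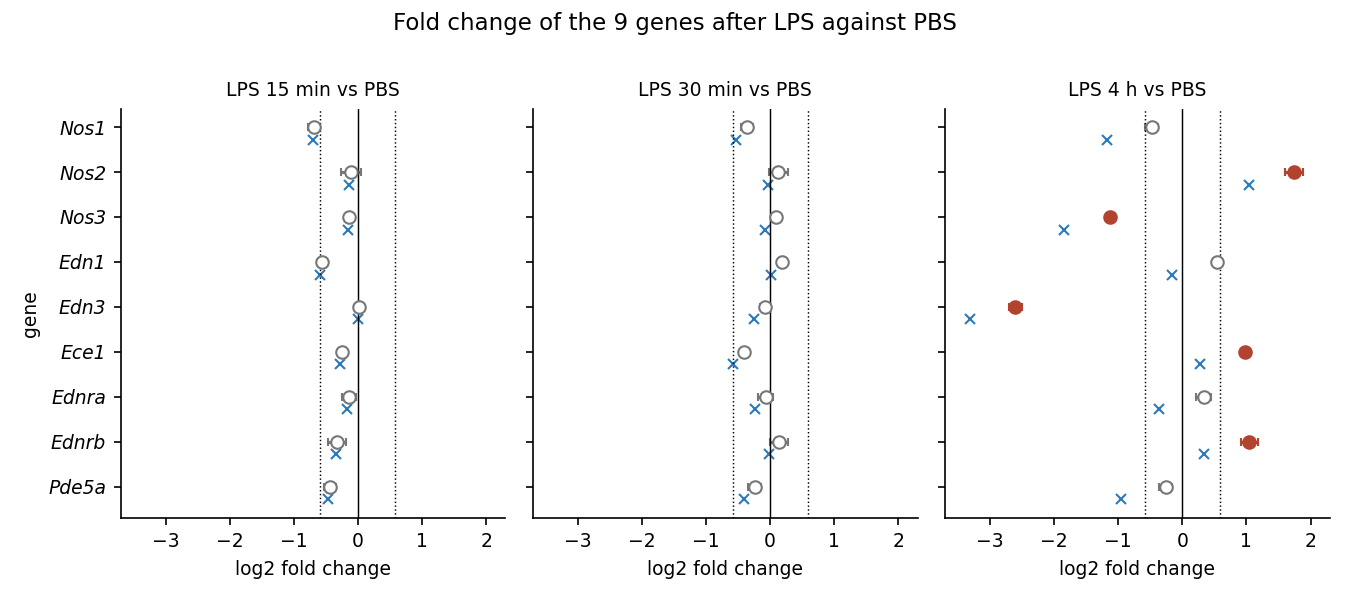
Log2 fold change of each gene against PBS at 3 times. Circles are the TMM-scaled estimates with 95% confidence intervals, filled where the change passed the test beyond 1.5-fold (dotted lines), and crosses are the estimates with library size alone as the scale. Only the 4 h panel holds filled circles, and there the crosses of Ece1 and Ednrb fall inside the dotted lines at 0.27 and 0.34.

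Among the synthases, Nos3 stayed within 1.5-fold of PBS early and lost most of its level by 4 h. The PBS libraries held 565, 566, and 566 CPM, the LPS 15 min libraries 521, 515, and 508, the LPS 30 min libraries 615, 604, and 581, and the LPS 4 h libraries 269, 246, and 258. All 4 h libraries lay below every other library. The log2 fold change at 4 h was -1.13 (SE 0.029), a 2.20-fold fall (adjusted p = 4.58e-15), and -1.84 with library size alone. At 15 min and 30 min it was -0.14 (SE 0.028) and 0.09 (SE 0.028), and the 30 min value was -0.08 with library size alone. The endothelial marker list moved with Nos3 at 4 h: it summed to 9426 to 9731 CPM in PBS and to 6430 to 6503 at 4 h, with 6 of 9 markers lower and 2 higher, Cdh5 and Erg, which are named after their values were seen. Its highest marker in PBS was Slc2a1 at 2735 CPM and its lowest Erg at 178, none was at 0, and its part in the fall of Nos3 was not tested.

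Nos2, the inducible synthase, stood at a low level until 30 min and rose by 4 h. Its libraries held 15.9, 14.1, and 17.3 CPM in PBS, 14.6, 14.2, and 14.9 at 15 min, 16.4, 17.1, and 18.1 at 30 min, and 55.3, 52.0, and 51.0 at 4 h. The PBS libraries overlapped those at 15 min and those at 30 min, the 15 min libraries lay below the 30 min libraries, and the 4 h libraries lay above all others. The log2 fold change at 4 h was 1.74 (SE 0.073), a 3.35-fold rise (adjusted p = 1.66e-13), and 1.04 with library size alone. At 15 min and 30 min the log2 fold changes were -0.11 (SE 0.078) and 0.13 (SE 0.077), the latter -0.03 with library size alone. Neutrophil markers summed to 4.50 to 5.15 CPM in PBS and 208 to 210 at 4 h, when all 7 tested of 8 were higher. The highest of them at 4 h was S100a9 at 91.8 CPM and the lowest Ly6g at 0.297, which was at 0 in PBS and at 15 min. Perivascular macrophage markers went from 88.9 to 91.5 CPM in PBS to 146 to 155 at 4 h with 3 of 5 higher, and microglial markers from 150 to 153 to 94.1 to 99.6 with 3 of 7 lower. The part of these cells in the rise of Nos2 was not tested.

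Nos1 was lower than PBS in every LPS library, most at 15 min on the TMM scale and most at 4 h with library size alone. It stood at 96.2, 91.8, and 89.5 CPM in PBS, at 54.7, 58.7, and 59.3 at 15 min, at 76.1, 68.3, and 71.5 at 30 min, and at 67.4, 62.8, and 69.1 at 4 h. The lowest PBS library lay above the highest of all 9 LPS libraries. The log2 fold change at 15 min was -0.68 (SE 0.048), which did not pass the test beyond 1.5-fold (adjusted p = 0.124) and passed it with library size alone at -0.71 (adjusted p = 0.0462). Against no fold limit its adjusted p was 7.42e-11. The values at 30 min and 4 h were -0.36 (SE 0.047) and -0.48 (SE 0.050), and at 4 h library size alone gave -1.18 (adjusted p = 1.93e-11). The neuronal markers summed to 333 to 347 CPM in PBS and 511 to 523 at 15 min, with 2 of 9 called higher. Slc17a7 had a large part in this sum, from 71.4 to 169 CPM, whereas Chodl went from 1.72 to 1.48. Both are named after their values were seen, and the part of neuronal RNA in the Nos1 value was not tested. At 30 min skeletal muscle markers summed to 170 to 184 CPM against 12.4 to 16.9 in PBS, with 7 of 8 higher, and their part in the Nos1 value at that time was not tested.

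Because 2 synthases moved in opposite directions, their shares were also compared within each library, where no scaling between libraries enters. Nos3 made up 90.6% ± 0.059 (SD, n = 3) of the TPM of the 3 synthases in PBS and 75.2% ± 0.953 at 4 h. Nos2 went from 3.49% ± 0.182 to 17.3% ± 1.09, and Nos1 from 5.87% ± 0.240 to 7.56% ± 0.279. At 15 min the Nos3 share was 92.8% ± 0.189 and the Nos2 share 3.05% ± 0.117. Nos3 thus stayed the most abundant synthase transcript in every group. These ratios were chosen after the values were seen and carry no test.

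**Figure D4:**
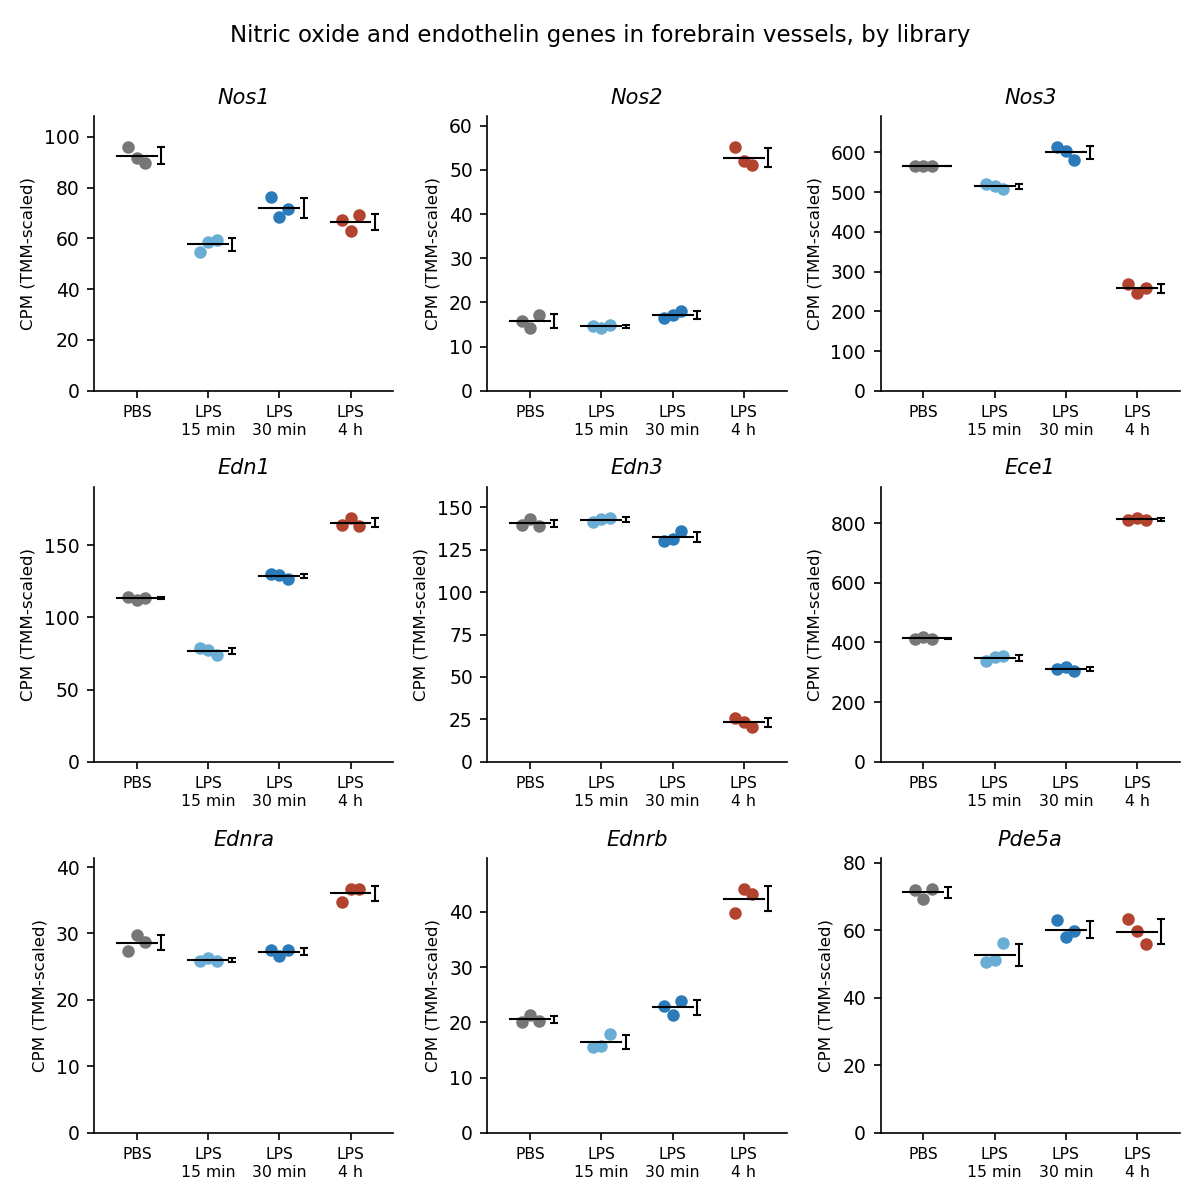
TMM-scaled CPM of the 9 genes in each of the 12 libraries. Points are libraries, horizontal lines are group means, and bars beside them are ± SD (n = 3); each axis starts at 0. The 4 h libraries stand apart from PBS for all 9 genes, beside 70.9% of all genes, and Edn1 dips at 15 min to 74.2 to 78.7 CPM. The change at 4 h passed the test beyond 1.5-fold for Nos2, Nos3, Edn3, Ece1, and Ednrb.

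The endothelin ligands behaved differently from each other. Edn1, which encodes the constrictor endothelin-1, measured 114, 112, and 114 CPM in PBS, 78.7, 77.5, and 74.2 at 15 min, 129.9, 129, and 127 at 30 min, and 164, 169, and 164 at 4 h. On this TMM scale no group overlapped another, so the gene was lowest at 15 min, above PBS at 30 min, and highest at 4 h. The log2 fold changes against PBS were -0.56 (SE 0.033), 0.18 (SE 0.032), and 0.55 (SE 0.033), and none passed the test beyond 1.5-fold. Without the fold limit their adjusted p were 3.21e-12, 8.33e-05, and 5.97e-13. Between 15 min and 30 min Edn1 rose by 0.74 (SE 0.033) on the log2 scale, or 1.68-fold (adjusted p = 0.000311), the 1 gene of the 9 called in that comparison beside 4.65% of all genes. With library size alone that value was 0.60 and did not pass (adjusted p = 0.87), and the 4 h value against PBS turned to -0.16. The TPM of Edn1 likewise went from 92.9 ± 1.49 in PBS to 72.3 ± 1.09 at 4 h. At 30 min it was 85.5 ± 1.80 TPM, below PBS, and the log2 fold change with library size alone was 0.02. The direction of Edn1 against PBS at 30 min and at 4 h thus depends on the scale.

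Edn3, which encodes endothelin-3, the ligand with lower affinity for Ednra, had the largest change of the 9 genes. Its libraries held 139, 143, and 139 CPM in PBS, 141, 143, and 144 at 15 min, 130.2, 132, and 136 at 30 min, and 25.7, 23.3, and 20.6 at 4 h. It stayed within 1.5-fold of PBS for 30 min and then lost most of its transcripts. The log2 fold change at 4 h was -2.60 (SE 0.051), a 6.08-fold fall (adjusted p = 7.14e-21), and -3.31 with library size alone. The values at 15 min and 30 min were 0.02 (SE 0.038) and -0.08 (SE 0.038). The lowest library at 4 h held 301 fragments and the lowest in PBS 3649, before any scaling.

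Within each library the TPM ratio of Edn1 to Edn3 was 1.18 ± 0.029 (SD, n = 3) in PBS, 0.781 ± 0.037 at 15 min, and 1.42 ± 0.034 at 30 min. It was 9.50, 10.7, and 12.01 in the 3 libraries at 4 h, and no group overlapped another. The ligand transcripts were thus near parity in PBS, slightly toward Edn3 at 15 min, and about an order of magnitude toward Edn1 at 4 h, on a measure that needs no scaling between libraries and was chosen after the values were seen.

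Ece1, the protease that releases active endothelin from its precursor, was lower early and rose at 4 h. The PBS libraries held 411, 417, and 413 CPM, the 15 min libraries 337, 351, and 355, the 30 min libraries 309.8, 317, and 306, and the 4 h libraries 811, 819, and 809.9. No groups overlapped. The log2 fold changes were -0.25 (SE 0.024) at 15 min and -0.41 (SE 0.025) at 30 min, neither beyond 1.5-fold, and 0.98 (SE 0.024) at 4 h, a 1.97-fold rise (adjusted p = 1.06e-13). The rise at 4 h was 0.27 with library size alone and did not pass (adjusted p = 1). From 30 min to 4 h, Ece1 rose by 1.39 (SE 0.025; adjusted p = 1.19e-19), and this call held with library size alone at 0.85 (adjusted p = 1.60e-10).

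The receptors were the least abundant of the endothelin genes in PBS, stood above Edn3 at 4 h, and were both higher at 4 h than in PBS on the TMM scale. Ednra, the constrictor receptor of smooth muscle, measured 27.4, 29.7, and 28.7 CPM in PBS, 25.9, 26.3, and 25.8 at 15 min, 27.5, 26.6, and 27.6 at 30 min, and 34.7, 36.8, and 36.7 at 4 h. On the log2 scale it differed from PBS by -0.14 (SE 0.056), -0.07 (SE 0.057), and 0.33 (SE 0.058) at the 3 times, none beyond 1.5-fold, and the 4 h value turned to -0.37 with library size alone. Smooth muscle markers summed to 3338 to 3375 CPM in PBS, 2355 to 2386 at 15 min with 3 of 7 lower, 3194 to 3254 at 30 min, and 3091 to 3166 at 4 h with 1 higher and 1 lower. Ednra thus had its lowest libraries at 15 min, when the smooth muscle list was also lowest, and the part of that list was not tested.

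Ednrb held 20.0, 21.3, and 20.3 CPM in PBS, 15.6, 15.7, and 17.9 at 15 min, 22.9, 21.3, and 23.9 at 30 min, and 39.8, 44.2, and 43.2 at 4 h. The 4 h libraries stood clear of all others. The rise at 4 h was 1.05 (SE 0.071) on the log2 scale, or 2.07-fold (adjusted p = 7.19e-07), and was 0.34 with library size alone, which did not pass (adjusted p = 1). At 15 min Ednrb was lower by -0.32 (SE 0.073; adjusted p = 0.00118 without the fold limit), and at 30 min it differed by 0.14 (SE 0.072), or -0.02 with library size alone. The sum of the astrocyte markers moved with Ednrb, from 731 to 755 CPM in PBS to 570 to 614 at 15 min, 772 to 797 at 30 min, and 1395 to 1454 at 4 h, with 3 of 7 higher at 4 h. Single markers had large parts in this sum: Gja1 went from 74.6 CPM in PBS to 522 at 4 h, and Gfap from 179 to 77.9 at 15 min. Slc1a2, Slc1a3, Aldh1l1, and S100b were not called against PBS at any time. The highest of them at 4 h was Gja1 at 522 CPM and the lowest Aqp4 at 16.6, none was at 0, and their part in the Ednrb result was not tested. The within-library TPM ratio of Ednrb to Ednra was 0.681 ± 0.013 (SD, n = 3) in PBS, 0.598 ± 0.040 at 15 min, 0.812 ± 0.043 at 30 min, and 1.19 ± 0.042 at 4 h, so Ednrb passed Ednra only at 4 h.

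Pde5a, which ends the cGMP signal of nitric oxide, was lower than PBS in all LPS libraries without passing the test beyond 1.5-fold at any time. It measured 71.9, 69.3, and 72.3 CPM in PBS, 50.4, 51.1, and 56.2 at 15 min, 62.9, 57.9, and 59.7 at 30 min, and 63.3, 59.6, and 55.7 at 4 h. Its log2 differences from PBS were -0.44 (SE 0.051), -0.24 (SE 0.051), and -0.26 (SE 0.054), with adjusted p of 3.05e-07, 0.000588, and 0.000185 without the fold limit. At 4 h library size alone gave -0.96 (adjusted p = 1.26e-07). On the TMM scale the mean of Pde5a was lowest at 15 min, though its libraries there overlapped those at 4 h. The means of Nos1, Nos2, Edn1, Ednra, and Ednrb were also lowest at 15 min, though the Nos2 libraries overlapped PBS. The smooth muscle, astrocyte, oligodendrocyte, perivascular macrophage, neutrophil, and skeletal muscle lists had their lowest mean sums at that time as well. The part of these lists in the values of the genes was not tested. With library size alone Pde5a, Nos1, and Ednra were lowest at 4 h.

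Between consecutive times, 5 of the 9 genes were called from 30 min to 4 h, beside 28.6% of all genes. Without the fold limit 8 of the 9 passed from 15 min to 30 min, beside 37.4% of all genes, and 7 from 30 min to 4 h, beside 65.3%. Nos2 rose by 1.61 (SE 0.074; adjusted p = 2.02e-12) and Ednrb by 0.90 (SE 0.072; adjusted p = 9.90e-05), the latter 0.36 and not called with library size alone (adjusted p = 1). Nos3 fell by 1.22 (SE 0.029; adjusted p = 3.38e-16) and Edn3 by 2.52 (SE 0.052; adjusted p = 2.52e-20) on the log2 scale. Edn1 and Ednra differed by 0.36 (SE 0.033) and 0.41 (SE 0.059), which turned to -0.18 and -0.13 with library size alone. Nos1 and Pde5a differed by -0.12 (SE 0.052) and -0.02 (SE 0.055), and their libraries overlapped. From 15 min to 30 min the other 8 genes differed by less than 1.5-fold, from -0.16 for Ece1 to 0.47 for Ednrb.

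Salmon estimates transcripts, so the forms behind each gene were examined. Edn1 had 1 annotated transcript. Nos3 was carried by Nos3-201, at 99.5% of the gene's TPM in PBS and 100% at 4 h, and Edn3 by Edn3-201, at 94.6% and 98.3%. Nos1 came from Nos1-206, at 97.4% in PBS, 96.7% at 15 min, 96.0% at 30 min, and 99.4% at 4 h, which starts at base 117841850 of chromosome 5, upstream of the RefSeq window of that gene. For these genes a single form carried the change of the gene.

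The forms of Nos2 and Ednrb were less certain. Nos2-201, the full-length coding form, held 3.67 ± 0.322 TPM (SD, n = 3) in PBS and 8.32 ± 0.532 at 4 h, or 42.7% and 67.3% of the gene. The other coding form Nos2-203 held 2.73 ± 1.10 and 2.92 ± 0.177 TPM, and the short noncoding Nos2-202 held 2.20 ± 0.806 and 1.13 ± 0.817. The added Nos2 transcripts at 4 h were thus mostly assigned to Nos2-201. Ednrb was divided among 3 coding forms. Ednrb-201 ranged from 2.36 to 5.49 TPM among the PBS libraries alone, so its mean of 4.33 ± 1.72 in PBS and 1.22 ± 0.812 at 4 h is of low precision. Ednrb-202 held 2.70 ± 1.47 and 5.65 ± 0.908 TPM, and Ednrb-203 held 2.03 ± 0.364 and 3.79 ± 0.544. The PBS and 4 h estimates were separate for all 3 forms, with Ednrb-201 lower at 4 h and the other 2 higher. In PBS replicates 1 to 3, Ednrb-201 was given 5.49, 5.14, and 2.36 TPM, and Ednrb-202 1.34, 2.50, and 4.25. Because these 2 forms varied in opposite directions within PBS, the estimates cannot show whether single forms followed the gene.

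Ece1 was carried by Ece1-201, at 137 ± 1.86 TPM in PBS, 115 ± 2.45 at 15 min, 83.1 ± 2.23 at 30 min, and 142 ± 1.96 at 4 h. A form of 2 exons, Ece1-203, was given 17.5 ± 1.92 TPM in PBS from 3.00 to 3.40 fragments a library. At 15 min it was given 43.5 TPM in replicate 2 from 6.76 fragments and 5.16 in replicate 3 from 0.915 fragments. The wide SD of the Ece1 TPM at 15 min and 30 min moved with this form, and the CPM of the gene, which count fragments, did not share it.

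Pde5a was split between Pde5a-201, at 10.8 ± 1.96 TPM in PBS and 4.86 ± 0.970 at 4 h, and Pde5a-204, at 5.18 ± 1.55 and 2.32 ± 0.567. The share of Pde5a-201 was 67.6% in PBS, 56.7% at 15 min, 58.2% at 30 min, and 67.7% at 4 h. At 15 min Pde5a-201 held 6.55 ± 0.656 TPM and Pde5a-204 held 5.01 ± 0.663. Ednra-201 held 12.6 ± 0.487 of the 13.3 TPM of Ednra in PBS and 8.40 ± 0.155 of the 8.94 at 4 h. The library kit did not mark strand, so reads of genes on opposite strands cannot be told apart where exons overlap. Nos3 shares 1040 of its 4132 exonic bases with the antisense gene Gm15587, which measured 10.6 CPM in PBS and 8.77 at 4 h, and 294 with Atg9b, at 2.17 and 1.27. The overlaps of Nos1, Edn1, Ednra, and Pde5a with opposite-strand genes were at most 268 bases, with partners below 1 CPM.

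The other genes of these pathways were taken from 7 lists of 83 genes, of which 82 were matched and 76 tested. At 15 min 6 of the 76 rose and 0 fell, and at 30 min 5 rose and 0 fell, a share of 7.89% and 6.58% beside 4.18% and 4.58% of all genes. Of all 19150 genes, 633 were called higher and 167 lower at 15 min, and 724 and 153 at 30 min. At 4 h 9 of the 76 rose and 16 fell, beside 19.0% and 13.8% of all genes, or 32.9% called beside 32.8%. The median log2 fold change of the 76 was -0.06, -0.02, and -0.16 at the 3 times. At 4 h library size alone called 45, 3 higher and 42 lower, beside 54.6% of all genes. In total the pathway genes were called at close to the rate of all genes at 4 h. More of them fell than rose on the TMM scale, whereas more of all genes rose than fell. The counts per list below stand beside the same shares of all genes.

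**Figure D5:**
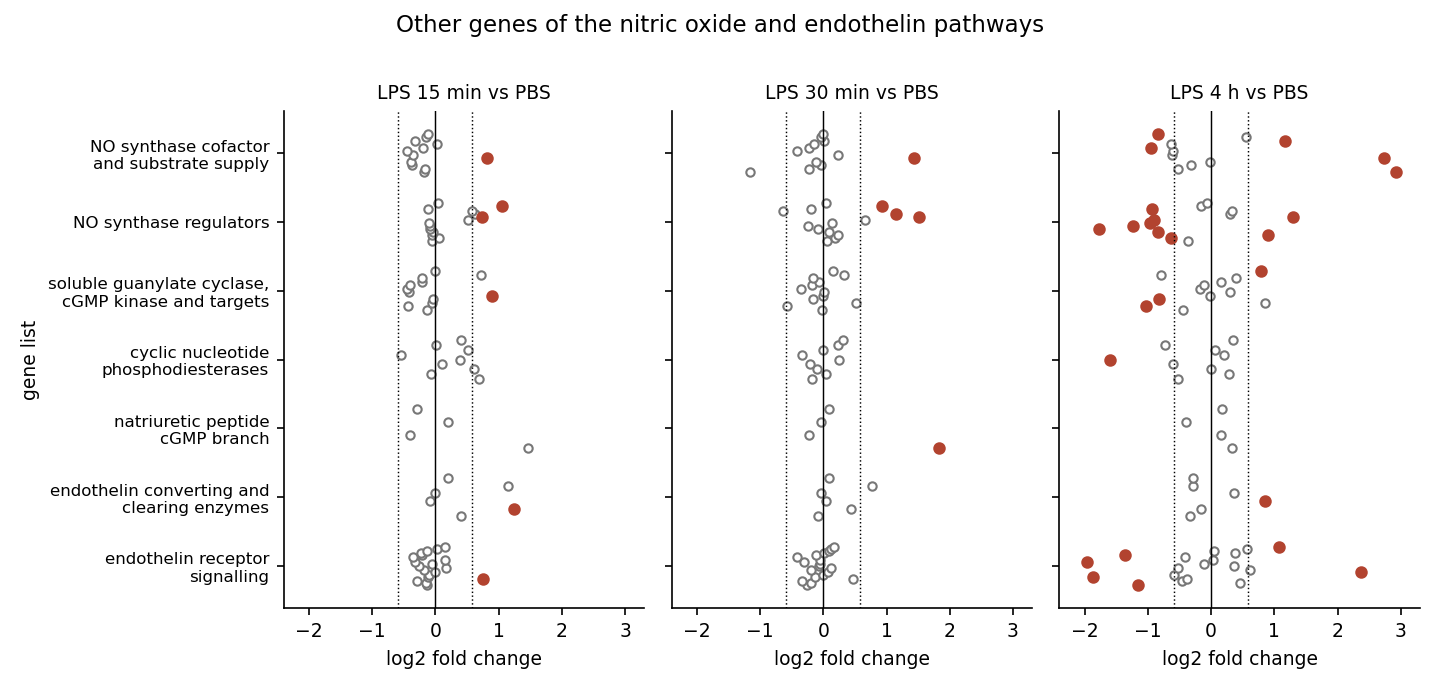
Log2 fold change of the 76 tested pathway genes against PBS, by list and time. Filled points passed the test beyond 1.5-fold, open points did not, and dotted lines mark 1.5-fold. At 15 min and 30 min all filled points lie to the right, and at 4 h 9 lie to the right and 16 to the left.

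In the cofactor and substrate list, 1 gene rose at all 3 times. Gch1, the rate-limiting enzyme of tetrahydrobiopterin synthesis, a cofactor of all nitric oxide synthases, measured 37.0, 38.1, and 34.7 CPM in PBS and 62.4, 68.1, and 64.2 at 15 min. It measured 104, 94.7, and 99.4 at 30 min and 239.8, 232, and 257 at 4 h. Gch1 was therefore higher at each later time, with log2 fold changes against PBS of 0.82 (SE 0.051; adjusted p = 0.000426), 1.44 (SE 0.050; adjusted p = 2.73e-13), and 2.73 (SE 0.049; adjusted p = 7.32e-22). Of the 12 tested genes in this list, 1 rose at 15 min, 1 at 30 min, and 3 at 4 h, when 2 fell. The share called at 4 h was 41.7%, beside 32.8% of all genes. The other 2 that rose at 4 h were Arg2, an arginase that competes for the same substrate, at 0.398 ± 0.318 CPM in PBS and 3.05 ± 0.934 at 4 h (2.92, SE 0.50; adjusted p = 0.000118), and Slc7a2, an arginine transporter (1.17, SE 0.046; 0.47 and not called with library size alone), which was named after its values were seen.

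Of the 14 genes that regulate the synthases, 2 rose at 15 min and 3 at 30 min. At 4 h 2 rose and 7 fell, beside 19.0% and 13.8% of all genes. This list had the highest share called at 4 h, 64.3% beside 32.8% of all genes. Nostrin, which traffics endothelial synthase away from the membrane, went from 64.7 ± 4.23 CPM (SD, n = 3) in PBS to 134 ± 1.83 at 15 min, a rise of 1.05 (SE 0.046; adjusted p = 8.69e-09), and stood at 57.7 ± 3.42 at 4 h. Hsp90aa1, a chaperone that binds Nos3, went from 272 ± 8.18 to 773 ± 13.4 CPM at 30 min (1.51, SE 0.025; adjusted p = 4.35e-20). It was also called at 15 min, at 452 ± 2.87 CPM, and at 4 h, at 669 ± 3.90 CPM, where library size alone gave a log2 fold change of 0.60 and no call (adjusted p = 0.217). Cav1, the caveolar protein that holds Nos3 inactive, went from 307 ± 7.63 CPM in PBS to 89.7 ± 3.69 at 4 h, a fall of 1.77 (SE 0.033; adjusted p = 2.12e-20) on the log2 scale. Thus both the endothelial synthase and this inhibitor had lower transcript levels at 4 h. Nos1ap, an adaptor of Nos1, fell by 1.21 (SE 0.177; adjusted p = 0.00578) between 15 min and 30 min. Neuronal markers summed to 333 to 347 CPM in PBS, 511 to 523 at 15 min, and 317 to 318 at 30 min, with 2 of 9 higher at 15 min, 2 lower from 15 min to 30 min, and none at 0. Nos1ap, Kcnma1, Pde10a, and Ecel1 also had higher means at 15 min than in PBS and at 30 min, and the part of neuronal RNA in these values was not tested.

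Downstream, 12 genes of soluble guanylate cyclase, the cGMP kinase, and their targets were tested. At 15 min 1 rose, Kcnma1, the large-conductance potassium channel, from 22.6 ± 1.38 to 42.1 ± 1.87 CPM (0.90, SE 0.068; adjusted p = 0.000511), and it was back at 22.6 ± 1.57 at 30 min. At 4 h 1 rose, Vasp, and 2 fell, the cyclase subunits Gucy1a1 (-1.03, SE 0.069) and Gucy1b1 (-0.82, SE 0.048), all 3 named after their values were seen. Vasp was no longer called with library size alone (0.09). Of 9 other phosphodiesterases 1 was called against PBS, Pde2a, which is stimulated by cGMP, at 303 ± 35.8 CPM in PBS and 99.3 ± 17.6 at 4 h (-1.61, SE 0.084; adjusted p = 2.44e-11). Pde10a fell by 0.87 (SE 0.077; adjusted p = 0.00418) from 15 min to 30 min. In the natriuretic peptide branch, which makes cGMP by another cyclase, Nppc was the 1 of 4 tested genes called, at 0.448 ± 0.032 CPM in PBS and 1.61 ± 0.224 at 30 min (1.84, SE 0.391; adjusted p = 0.0146).

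On the endothelin side, 6 genes of the ligand-processing list were tested beside Edn1, Edn3, and Ece1. Ecel1, a relative of Ece1, went from 2.54 ± 0.318 to 6.01 ± 0.215 CPM at 15 min (1.24, SE 0.180; adjusted p = 0.00454). The proprotein convertase Furin, named after its values were seen, rose by 0.86 (SE 0.031) at 4 h and was not called with library size alone (0.15). Of 19 genes of endothelin receptor signalling, 1 rose at 15 min, 0 were called at 30 min, and at 4 h 2 rose and 4 fell. The share called at 4 h was 31.6%, beside 32.8% of all genes. Gna13, a G protein subunit, went from 56.7 ± 0.983 CPM in PBS to 294 ± 7.24 at 4 h (2.37, SE 0.039; adjusted p = 2.86e-22). Gna11, a subunit that couples receptors to phospholipase C, went from 152 ± 3.96 to 41.5 ± 1.08 (-1.88, SE 0.038; adjusted p = 1.17e-19). Itpr3, a calcium release channel further down the same path, went from 216 ± 9.18 to 55.5 ± 4.51 (-1.96, SE 0.043; adjusted p = 3.77e-19). Gna13 thus differed in direction from Gna11 and Itpr3 at 4 h, and all 3 calls held with library size alone, at 1.67, -2.58, and -2.67. Relatives of Gna11 and Itpr3 in the list were not called at 4 h: Gnaq (0.62, SE 0.050), Itpr1 (0.37, SE 0.031), and Itpr2 (-0.11, SE 0.066). With library size alone these were -0.09, -0.34, and -0.82, and only Itpr2 was called (adjusted p = 0.000505). These relatives are named after their values were seen.

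The genes whose pattern was most like each of the 9 were found by Pearson's r of log2 CPM over the 12 libraries among 16305 genes, as a description only, since the libraries share 4 groups. For Nos3 they included Kif1c and Ddah2 (r = 0.997 for each), and Ddah2 degrades an inhibitor of the synthases. For Nos2 they were Dhx40, Srgn, and Batf (r = 0.997 for each), and for Nos1 Actn4, Slc6a12, and Itga8 (r = 0.967, 0.960, and 0.957). Edn3 was most like Ypel3, Zbtb14, and Tcf7 (r = 0.999 for each), and Edn1 most like Prps2, Pbxip1, and Slc2a12 (r = 0.988, 0.986, and 0.985). For Ece1 they were Son, Ets2, and Trim6 (r = 0.997, 0.997, and 0.996), for Ednra Pcdhgb2, Rtcb, and Ntn1 (r = 0.988, 0.986, and 0.986), and for Ednrb Ifngr1, Brwd3, and Ccr1 (r = 0.991, 0.991, and 0.989). Pde5a was most like Lactb2, Slc6a12, and Nos1 itself (r = 0.967, 0.934, and 0.932). The number of genes above r = 0.95 was 2050 for Nos2 and 1304 for Edn3. The number was 961 for Nos3, 822 for Ednra, 782 for Ednrb, 64 for Edn1, 8 for Nos1, and 1 for Pde5a.

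The deposited gene table, which was normalized by the authors, gave the same 5 calls at 4 h in limma on log2 values plus 1. The log2 fold changes there were 1.40 for Nos2, -1.17 for Nos3, -2.66 for Edn3, 1.11 for Ednrb, and 0.96 for Ece1. Nos2 was the gene whose size differed most between the sources: the table gave a mean of 396 ± 18.8 normalized counts (SD, n = 3) in PBS, 303 ± 12.7 at 15 min, 395 ± 42.6 at 30 min, and 1047 ± 45.9 at 4 h. The log2 fold change at 15 min was -0.38 in that table and -0.11 in the summed fragments, and neither passed the test. A fit of the summed fragments with an offset for average transcript length gave 1.41 for Nos2 at 4 h, near the value of that table.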

How the data were processed

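RNA was measured in 12 libraries of cerebral vessels, which the sample records put in 4 groups of 3. The members and gene lists were chosen with earlier results of these data known. Per the labels and the study's methods, SMART-Seq v4 libraries, which do not mark strand, were sequenced as read pairs and quantified by the authors with Salmon 1.2.1 on GRCm38.p6 transcripts. The deposited Salmon files hold an estimated count of fragments per transcript, not normalized, and TPM, which the authors' tool scaled for effective length to a fixed sum. The deposited gene table holds a normalized signal, gene counts that the authors imported with tximport and divided by DESeq2 factors that include average transcript length; its columns were matched to libraries by sample number, and all per-library columns were used.

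Transcripts were joined without version to GENCODE M21 (139852 of 140948; the rest held 0.482% to 0.850% of fragments). Estimated counts were summed to genes and rounded. Genes were filtered with filterByExpr (minimum count 10, total 15, proportion 0.7), which kept 19150, and scaled by TMM in edgeR 4.0.16 under R 4.3.3. All 12 libraries entered 1 quasi-likelihood fit, glmTreat tested each change against a limit of 1.5-fold (0.585 on the log2 scale), and adjusted p are Benjamini-Hochberg values over all genes tested; SE is from the same fit. The design of the study has 3 comparisons with PBS, and consecutive times were also compared. Alternatives were DESeq2 1.42.0 with the same limit, no fold limit, RLE factors, library size alone, no filter, a length offset, only the groups compared, a replicate block, limma 3.58.1 on the deposited gene table plus 1 or 10 (mean of at least 10), and leaving out each library. The script was tested on simulated data with changes added to 200 genes. Same-numbered libraries did not deviate together (r of -0.049 to 0.068 over 18 pairs), so numbers were not taken as pairs. The squared differences between replicates of a group were, at the median gene, 2.19 to 2.91 times those of counting alone. No library was taken for a repeat deposit.

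Named are the 9 genes, the 3 largest rises and falls among called pathway genes per comparison (at most 2 per list and direction), and the 3 genes with the highest r per member among tested genes with a mean of at least 1 CPM. 1 gene that this rule names is not reported here. Gene symbols of the lists were matched to GENCODE, where 1 of 83 (Irag1, whose older symbol Mrvi1 is also listed) was not matched. Promoters are from RefSeq (GRCm38.p6).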

Additional observations from a re-analysis of the deposited data

Results flagged for a closer look

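The effect of LPS against PBS differed between consecutive times for 6 of the 9 genes, tested directly as the difference between LPS groups in edgeR with the limit of 1.5-fold, which is the same as the difference between their effects because the PBS libraries are shared. Of these, 5 were called between 30 min and 4 h, beside 28.6% of all genes, and 1 between 15 min and 30 min, beside 4.65%. Between 30 min and 4 h the log2 difference was 1.61 for Nos2 (adjusted p = 2.02e-12), -1.22 for Nos3 (adjusted p = 3.38e-16), -2.52 for Edn3 (adjusted p = 2.52e-20), 0.90 for Ednrb (adjusted p = 9.90e-05), and 1.39 for Ece1 (adjusted p = 1.19e-19). Between 15 min and 30 min it was 0.74 for Edn1 (adjusted p = 0.000311). With library size alone Edn1 (0.60) and Ednrb (0.36) were not called in these comparisons, whereas Nos2, Nos3, Edn3, and Ece1 were. All 3 libraries of the later time lay on the stated side of all 3 of the earlier time for each of these 6 genes. Because the 6 were picked by the test itself, this separation gives it no further support. The share of all genes with such separation between consecutive times is not given here. Groups of 3 libraries were not examined for single outlying libraries.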

How the results depend on the processing

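Of 720 recomputed fold changes of the 9 genes, 675 kept their direction and their side of the test, 27 newly passed it, 4 no longer passed, and 14 changed sign. The total includes the fits that left out 1 library. Of the 27, 24 came from the test without the fold limit and 3 from library size alone. Library size alone also gave all 4 that no longer passed and 9 of the sign changes. With library size alone the sign changed for Edn3 at 15 min (-0.0013), for Nos2 (-0.035), Nos3 (-0.080), and Ednrb (-0.020) at 30 min, and for Edn1 (-0.158) and Ednra (-0.371) at 4 h. It also changed for Ednra between 15 min and 30 min (-0.073), and for Edn1 (-0.175) and Ednra (-0.133) between 30 min and 4 h. Limma on the deposited table plus 1 and plus 10 gave Nos2 at 30 min as -0.00616 and -0.00592, and RLE factors gave Pde5a between 30 min and 4 h as 0.000250, where leaving out 1 library at a time gave -0.0612 to 0.0276. None of these 14 was called under either setting. The cause of these changes was not tested beyond the shift of the median gene that the scale itself makes.

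Without the fold limit, members called were 6 at 15 min, 5 at 30 min, 9 at 4 h, and 8 between 15 min and 30 min, and pathway genes called were 45, 39, 59, 40, and 59 in the 5 comparisons, beside 38.6%, 36.9%, 68.5%, 37.4%, and 65.3% of all genes; this test admits smaller changes by construction. Library size alone called 1 member at 15 min, 0 between 15 min and 30 min, and 45 pathway genes at 4 h. Limma on the deposited table called 3 pathway genes at 15 min (plus 1 and plus 10) and 2 between 15 min and 30 min, where DESeq2 called 2 and the length offset 3. With the replicate block, members called at 4 h stayed at 5, and leaving out any 1 library changed no call of the 9 genes. Over all genes at 30 min, TMM called 724 higher and 153 lower and library size alone 541 and 340. DESeq2 called 529 genes at 15 min and limma plus 1 called 399, against 800 with edgeR. The lowest libraries held 301 fragments of Edn3 and 334 of Nos2, which limits their precision.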
